A study of Arabidopsis thaliana with 9 samples.

Results

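The 45 genes described here encode UDP-glycosyltransferases (UGTs) of Arabidopsis thaliana, measured in whole rosettes of an F1 hybrid and of its parents, C24 and Col (the accession Col-0). A member is a probe set, other than an array control, that the platform annotation gives to 1 gene whose symbol starts with UGT and a digit. The annotation held 47 such probe sets. The rule leaves out 4 symbols: UGT78D1 and UGT78D2, which act on flavonoids, and the anthocyanin genes UGT79B1 and UGT75C1. Of the 47 probe sets 2 carried 1 of these symbols, which left 45 of the 22746 probe sets and 1 probe set per gene. The rule that defines a member uses no measured value. It misses UGT genes that the annotation gives another symbol: 4 further probe sets of 1 gene each had a UGT name only among the RefSeq synonyms. RefSeq held 64 protein-coding genes with a UGT symbol or synonym, so the members are not the whole family. Totals per subfamily below count members only. Not every remaining member lies outside flavonoid metabolism: UGT78D3 is known as a flavonol arabinosyltransferase, and UGT80B1, a sterol glucosyltransferase, is also called TRANSPARENT TESTA 15 after the pale seed coat of its mutant.

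The lines compared were the F1 hybrid (C24 x Col by its label), the inbred accession C24 and the inbred accession Col, with 3 biological replicates of each line and 1 Affymetrix array per replicate. Plants of all 3 groups grew on agar plates of MS medium at a 12-hour day and were harvested 15 days after sowing, and RNA came from the whole rosette. No group carried a transgene or a treatment. The sources used here give neither the plants per replicate nor the direction of the cross, and p-values measure the spread between these samples.

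UGTs move a sugar, most often glucose, from a UDP-sugar onto a small molecule. In plants their acceptors include hormones, salicylic acid, phenylpropanoids, glucosinolate precursors, sterols and foreign compounds, and the sugar usually makes the acceptor more soluble, less active and fit for storage in the vacuole. The family is numbered by sequence: the number after UGT is the group called a subfamily here, and several subfamilies sit in tandem arrays of neighbouring genes.

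The values are MAS5 signals, a linear brightness per probe set and array, already scaled to a common mean on every array, and each difference below is therefore relative to that scaling. Signals of different probe sets cannot be set against each other as transcript levels. Of the 45 members, 20 passed a filter on dim probe sets (a mean log2 signal over the 9 arrays of at least 6.49, a signal of 89.9) and were tested, and 25 lay under it. The members nearest to the filter were UGT84A4 just inside, with a geometric mean of 94.4, and UGT85A7 just outside, with 77.0. Tests are limma's, two-sided, with p-values adjusted over all 13648 probe sets tested and a threshold of 0.05, and "called" means past it. The 20 members stood for 10 of the 11 subfamilies. In bulk rosettes, fewer cells of a type and less RNA per cell cannot be told apart.

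Of 14 leaf markers listed the annotation named 4, all over the filter. RCA, the Rubisco activase gene, stood at 36793 ± 1791 in F1, 31676 ± 1238 in C24 and 36305 ± 4544 in Col (SD, n = 3 arrays, as for every mean ± SD below) and was not called. The antenna genes LHCB4.1 and LHCB4.2 were lower in C24, with C24 minus Col at -0.18 (adjusted p = 0.0371) and -0.51 (adjusted p = 2.30e-05), and LHCB4.3 was lower in F1, by -0.37 (adjusted p = 0.0209) against Col and -0.33 (adjusted p = 0.0456) against the mid-parent. Of the root markers the annotation named PYK10, a beta-glucosidase gene of endoplasmic reticulum bodies, which stood at 1985 ± 143 in F1, 92.0 ± 40.5 in C24 and 2726 ± 219 in Col. The part of these markers in the differences below was not tested. No marker listed for seed or flower was named by the annotation, and both stomatal markers it named (SPCH and MUTE) lay under the filter. Log2 signals correlated at 0.927 to 0.939 between arrays of 1 group and at 0.904 to 0.928 between arrays of different groups. These correlations run over probe sets, not over independent replicates.

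More of the UGT genes were called between the parents than between the hybrid and either parent, and the same held over all probe sets tested. In C24 against Col, 11 of the 20 members tested were called (55%), where 30.9% of all probe sets tested were. Of these 4 were higher in C24 (UGT72B3, UGT72E1, UGT80B1 and UGT87A2), where the background was 15.7%, and 7 were lower (UGT74D1, UGT76C1, UGT76C2, UGT76E11, UGT85A2, UGT85A5 and UGT88A1), where it was 15.2%. In F1 against Col 3 of 20 were called (15%, background 11.5%), 2 of them higher in F1 (UGT72B3 and UGT72E1, background 6.37%) and 1 lower (UGT71B1, background 5.08%). In F1 against C24 7 of 20 were called (35%, background 14.3%), 4 of them higher in F1 (UGT76C1, UGT85A2, UGT85A5 and UGT88A1, background 7.55%) and 3 lower (UGT72B3, UGT72E1 and UGT87A2, background 6.75%). The median size of the difference, sign ignored, was 0.54 on the log2 scale over the members and 0.25 over all probe sets tested for C24 against Col, 0.27 and 0.18 for F1 against Col, and 0.29 and 0.19 for F1 against C24. Whether the C24 sequence differs from that of the probes was not tested. The comparisons share arrays and are not independent of each other. An exact permutation test of 3 arrays against 3 cannot go below p = 0.1, so the calls rest on limma's spread, shared by the 3 groups.

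**Figure D1:**
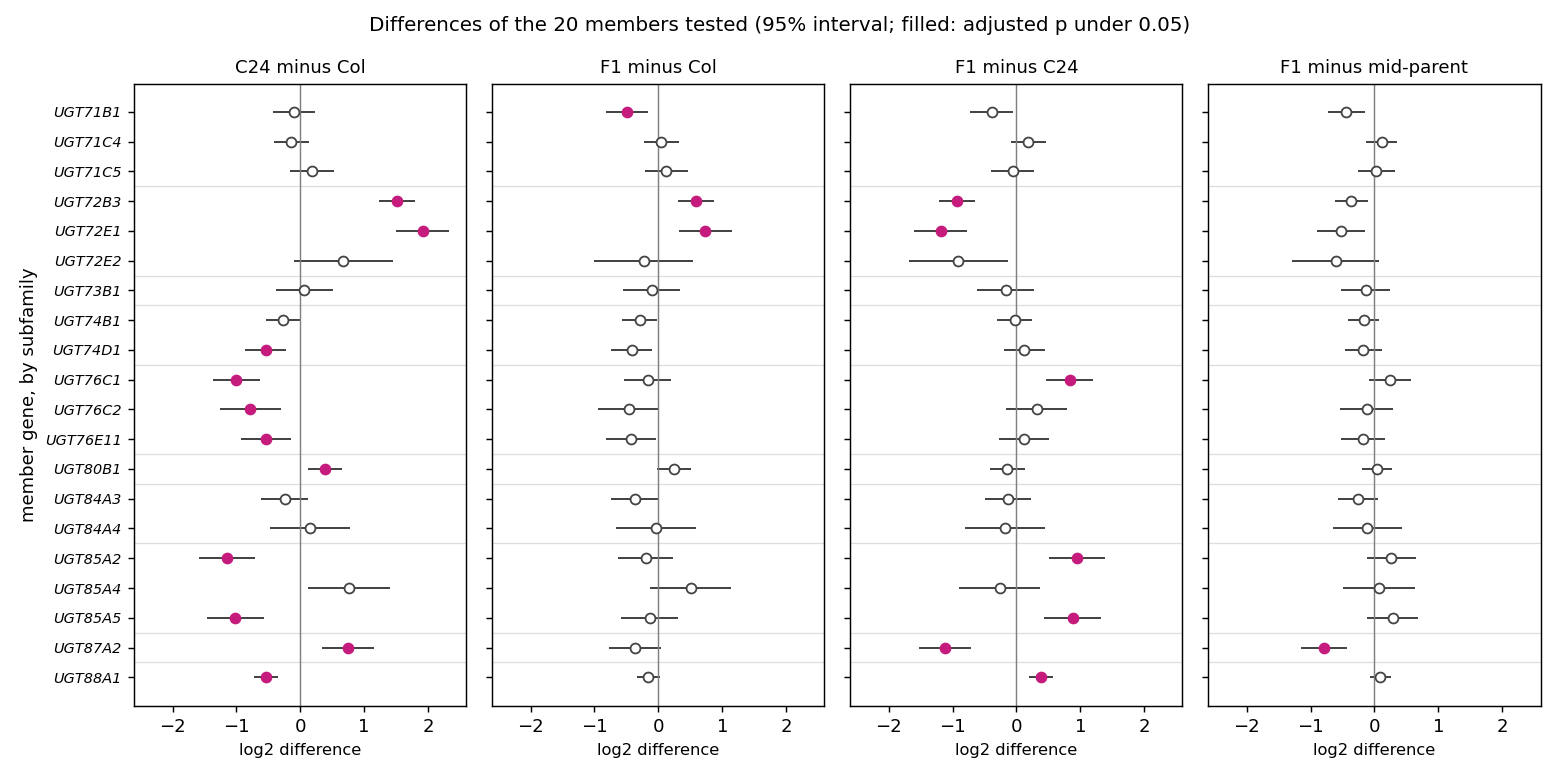
Log2 differences (x axes) of the 20 members tested (y axis, by subfamily) for C24 minus Col, F1 minus Col, F1 minus C24 and F1 minus the mid-parent, with 95% intervals as lines and filled points for an adjusted p under 0.05. The first panel holds 11 filled points, 4 of them to the right of 0, and the last holds 1, UGT87A2.

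In subfamily 72, 2 of the 3 members tested rose in C24 and stood between the parents in F1. The subfamily holds enzymes that glucosylate monolignols and related aldehydes, the building blocks of lignin: UGT72E1 acts on coniferyl and sinapyl aldehyde, UGT72E2 and UGT72E3 on the alcohols, and UGT72B3 is a close relative of UGT72B1, known from the conjugation of monolignols and of chlorinated foreign compounds. UGT72B1 itself is not a member by the rule. The subfamily's remaining member, UGT72E3, lay under the filter, with signals from 4.26 to 27.2.

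UGT72E1 (AT3G50740) had signals of 329.6, 504 and 346 on the F1 arrays (replicates 1, 2 and 3, the order used throughout), 980.5, 821 and 843 in C24 and 195, 209 and 307 in Col. The 3 groups did not overlap. Its level was 3.78 times as high in C24 as in Col, a log2 difference of 1.92 (SE 0.19, adjusted p = 1.45e-06), the largest among the members tested. F1 lay above Col by 0.73 (SE 0.19, adjusted p = 0.0198) and below C24, with -1.19 (SE 0.19, adjusted p = 0.000477). The call against Col was lost without Col replicate 1 (adjusted p = 0.0887), Col replicate 2 (adjusted p = 0.0858) or F1 replicate 2 (adjusted p = 0.0952), and without an intensity trend (adjusted p = 0.0581), over a range of 0.00443 to 0.0952.

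UGT72B3 (AT1G01420) had 472, 443 and 433 in F1, 887, 845 and 831 in C24 and 350.1, 281 and 269.5 in Col, again with no overlap between the groups. The log2 difference was 1.52 (SE 0.13, adjusted p = 2.47e-07) for C24 minus Col, 0.59 (SE 0.13, adjusted p = 0.00599) for F1 minus Col and -0.93 (SE 0.13, adjusted p = 0.000125) for F1 minus C24. These 3 calls were kept under every alternative tried. UGT72E2 (AT5G66690) had 80.3, 85.8 and 127 in F1, 198, 178 and 164 in C24 and 173, 54.3 and 151 in Col. The F1 arrays lay below all C24 arrays, while Col, with replicate 2 at 54.3, overlapped both in range. It was not called: F1 minus C24 was -0.91 (95% interval -1.67 to -0.14, adjusted p = 0.109), and without Col replicate 2 the adjusted p was 0.0176. Fitted with only F1 and C24, it was 0.0243.

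In subfamily 76 all 3 members tested, of 8, fell in C24. Its members act on cytokinins (UGT76C1 and UGT76C2 attach glucose to ring nitrogens of the hormone and so inactivate it), on isoleucic and salicylic acid (UGT76B1), on dihydroxybenzoic acids (UGT76D1) and on hydroxylated jasmonate (UGT76E1).

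UGT76C1 (AT5G05870) had 251, 275 and 275 in F1, 137, 185 and 133 in C24 and 296, 288 and 317 in Col. All C24 arrays lay below the others, and F1 also lay below Col, by less. The log2 difference was -1.0 (SE 0.16, adjusted p = 0.000252) for C24 minus Col and 0.83 (SE 0.16, adjusted p = 0.00275) for F1 minus C24, while F1 minus Col was -0.17 (95% interval -0.52 to 0.18, adjusted p = 0.575). Its neighbour UGT76C2 (AT5G05860) had 320.2, 201 and 194 in F1, 218, 146 and 202 in C24 and 379.6, 306 and 281 in Col. F1 replicate 1 stood among the Col arrays and F1 replicates 2 and 3 among those of C24. UGT76C2 fell in C24, with a log2 difference of -0.78 (SE 0.22, adjusted p = 0.0122), a call lost without Col replicate 1 (adjusted p = 0.0606) or C24 replicate 2 (adjusted p = 0.0592), over a range of 0.00289 to 0.0606. F1 minus C24 was 0.32 (95% interval -0.14 to 0.78, adjusted p = 0.368) for this gene.

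UGT76E11 (AT3G46670) had 493, 327 and 337 in F1, 412, 313 and 330.1 in C24 and 574, 537 and 428 in Col. All C24 arrays were below all Col arrays, and F1 spanned both. C24 minus Col was -0.54 (SE 0.18, adjusted p = 0.0284), and the call was lost without Col replicate 1 (adjusted p = 0.108), Col replicate 2 (adjusted p = 0.0939), C24 replicate 2 (adjusted p = 0.0986) or C24 replicate 3 (adjusted p = 0.0832), and without an intensity trend (adjusted p = 0.0556). F1 differed from Col by -0.43 (95% interval -0.80 to -0.05, adjusted p = 0.138) and, without F1 replicate 1, by -0.62 (adjusted p = 0.0327). The other 5 members (UGT76B1, UGT76D1, UGT76E1, UGT76E2 and UGT76E12) lay under the filter. With no filter none of the 5 was called in C24 against Col. Their differences were positive in UGT76B1, UGT76D1, UGT76E2 and UGT76E12 and negative in UGT76E1, at signals under the filter, so that no size is given. Only in UGT76E12 did the C24 arrays all lie above the Col arrays.

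In subfamily 85, 2 neighbouring genes fell to about the same extent in C24 and stood near Col in F1. No acceptor is given here for either product. UGT85A2 (AT1G22360) had 524, 423 and 320.4 in F1, 189.8, 184 and 283 in C24 and 486, 529 and 418 in Col. The C24 arrays lay below all others, and F1 reached from under the lowest to just under the highest Col array. Its log2 difference was -1.15 (SE 0.20, adjusted p = 0.000373) for C24 minus Col, where Col was 2.21 times as high, and 0.95 (SE 0.20, adjusted p = 0.00397) for F1 minus C24. UGT85A5 (AT1G22370) had 295, 284 and 251 in F1, 108, 175 and 177 in C24 and 287, 265 and 366 in Col, with C24 again below all other arrays. C24 minus Col was -1.02 (SE 0.20, adjusted p = 0.00126) and F1 minus C24 0.88 (SE 0.20, adjusted p = 0.00784). F1 minus Col was -0.20 (95% interval -0.62 to 0.22, adjusted p = 0.578) for UGT85A2 and -0.13 (95% interval -0.57 to 0.30, adjusted p = 0.732) for UGT85A5.

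UGT85A4 (AT1G78270), tested as well, went the other way without being called. Its signals were 131, 257 and 204 in F1, 214, 236 and 234 in C24 and 170.3, 176 and 80.4 in Col, and C24 minus Col was 0.76 (95% interval 0.14 to 1.38, adjusted p = 0.0598). All C24 arrays were above all Col arrays. It passed without Col replicate 1 (adjusted p = 0.0460), Col replicate 2 (adjusted p = 0.0432) or F1 replicate 1 (adjusted p = 0.0403), and with only C24 and Col fitted (adjusted p = 0.0495). The subfamily's other 2 members, UGT85A3 and UGT85A7, lay under the filter.

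UGT87A2 (AT2G30140), reported to act in flowering time and in stress responses, was the 1 member called against the mid-parent, the mean of both parents. Its signals were 440.0, 372 and 266 in F1, 886, 681 and 738 in C24 and 539, 469 and 373 in Col. All C24 arrays stood above the rest, whereas F1 and Col overlapped, with the F1 mean the lowest of the 3 (359 ± 87.8, against 768 ± 105 in C24 and 460.1 ± 83.1 in Col). C24 minus Col was 0.75 (SE 0.18, adjusted p = 0.00567) and F1 minus C24 -1.12 (SE 0.18, adjusted p = 0.00065). Against the mid-parent, taken on linear signals, F1 fell, with a log2 difference of -0.79 (SE 0.16, adjusted p = 0.0106). It was 1 of 20 members called in that comparison (5%, background 3.3%, and 1.62% for lower in F1). The call was lost without F1 replicate 3 (-0.59, adjusted p = 0.0706) and without an intensity trend (adjusted p = 0.0573), over a range of 0.000838 to 0.0706. F1 was not shown to lie below Col, with F1 minus Col at -0.37 (95% interval -0.76 to 0.02, adjusted p = 0.219).

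UGT88A1 (AT3G16520), for which no acceptor is given here, had 4154, 4150.4 and 4194 in F1, 3356, 3186 and 3028 in C24 and 4642, 4908 and 4389.9 in Col, 3 groups without overlap. C24 minus Col was -0.54 (SE 0.08, adjusted p = 9.19e-05) and F1 minus C24 0.39 (SE 0.08, adjusted p = 0.00383), while F1 minus Col was -0.16 (95% interval -0.33 to 0.01, adjusted p = 0.239). UGT80B1 (AT1G43620), the sterol glucosyltransferase, had 611, 549 and 587 in F1, 588, 671 and 669 in C24 and 533, 440.3 and 507 in Col. Its Col arrays lay below all others and F1 overlapped C24. C24 minus Col was 0.38 (SE 0.12, adjusted p = 0.0228), a call lost after quantile normalization (0.32, adjusted p = 0.0505) or median centring (0.30, adjusted p = 0.0641) and without Col replicate 2 (adjusted p = 0.101), C24 replicate 2 (adjusted p = 0.0792) or C24 replicate 3 (adjusted p = 0.0781).

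Subfamily 74 holds enzymes of the glucosinolate, auxin and salicylic acid pathways. UGT74B1 adds the glucose of the glucosinolate core, UGT74D1 glucosylates auxins and their oxidation product, and UGT74F1 glucosylates salicylic acid. UGT74D1 (AT2G31750) had 716, 614 and 566 in F1, 581, 544 and 608 in C24 and 967, 923 and 665 in Col. All C24 arrays lay below all Col arrays, and Col replicate 3 was lower than the other Col arrays and within the F1 range. It fell in C24, with a log2 difference of -0.54 (SE 0.14, adjusted p = 0.00979), a call lost without Col replicate 1 (adjusted p = 0.0520) or Col replicate 2 (adjusted p = 0.0512), with a range of 0.00115 to 0.0520. F1 minus Col was -0.42 (95% interval -0.73 to -0.11, adjusted p = 0.0773) and, without Col replicate 3, -0.59 (adjusted p = 0.0124).

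UGT74B1 (AT1G24100) had 2338, 2032 and 1867 in F1, 2488, 1968 and 1918 in C24 and 2859.6, 2281 and 2511 in Col. The groups overlapped and it was not called, at -0.27 (95% interval -0.53 to -0.01, adjusted p = 0.114) for C24 minus Col, which passed after median centring (-0.35, adjusted p = 0.0430) and without C24 replicate 1 (-0.39, adjusted p = 0.0320). UGT74F1 lay under the filter, with signals from 3.65 to 14.5.

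In subfamily 71, whose members include the abscisic acid glucosyltransferases UGT71C5, UGT71B6 and UGT71B8, 3 of 9 members were tested and 0 were called in limma between the parents (0 at an unadjusted p under 0.05). UGT71B1 (AT3G21750) had 260.3, 243 and 237 in F1, 333, 338 and 301 in C24 and 377, 285 and 389 in Col. Every F1 array lay below every array of both parents. F1 minus Col was -0.49 (SE 0.15, adjusted p = 0.0452) and F1 minus C24 -0.39 (95% interval -0.71 to -0.07, adjusted p = 0.0986). The call against Col was lost in 11 of 18 alternatives, among them leaving out Col replicate 1 or 3, any C24 array or any F1 array, with an adjusted p of 0.0552 to 0.149 in these 8 of the 11 and 0.0189 to 0.149 over the 18. UGT71C5 (AT1G07240) had 325, 350.1 and 271 in F1, 317, 298 and 369 in C24 and 276, 267 and 323 in Col, overlapping groups with C24 minus Col at 0.18 (95% interval -0.14 to 0.50, adjusted p = 0.398). UGT71C4 (AT1G07250) had 1064, 1144 and 1156 in F1, 986, 1095 and 887 in C24 and 911, 1163 and 1212 in Col, with C24 minus Col at -0.14 (95% interval -0.40 to 0.12, adjusted p = 0.425).

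Among the tested members of subfamilies 73 and 84, 1 and 2 in number, 0 were called in limma. Their members under the filter are given further on. UGT73B1 (AT4G34138) was the 1 of 7 members of subfamily 73 tested, with 231, 182 and 248 in F1, 270.4, 181 and 301 in C24 and 258, 208 and 241 in Col, and C24 minus Col at 0.06 (95% interval -0.36 to 0.49, adjusted p = 0.844). No comparison of it had an unadjusted p under 0.05. Subfamily 84 makes glucose esters of sinapate and other hydroxycinnamates (UGT84A1 to UGT84A4) and of the auxin indole acetic acid (UGT84B1). UGT84A3 (AT4G15490) had 339, 302 and 261 in F1, 312, 405 and 274 in C24 and 425, 361 and 379 in Col. Its F1 arrays all lay below the Col arrays, and F1 minus Col was -0.37 (95% interval -0.72 to -0.03, adjusted p = 0.161), the 1 comparison of both tested members with an unadjusted p under 0.05. UGT84A4 (AT4G15500) had 94.2, 80.9 and 95 in F1, 94.3, 106 and 106 in C24 and 70.3, 82.2 and 134 in Col, with overlapping groups and C24 minus Col at 0.15 (95% interval -0.46 to 0.76, adjusted p = 0.733). UGT78D3, the 1 member of subfamily 78, was not tested.

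**Figure D2:**
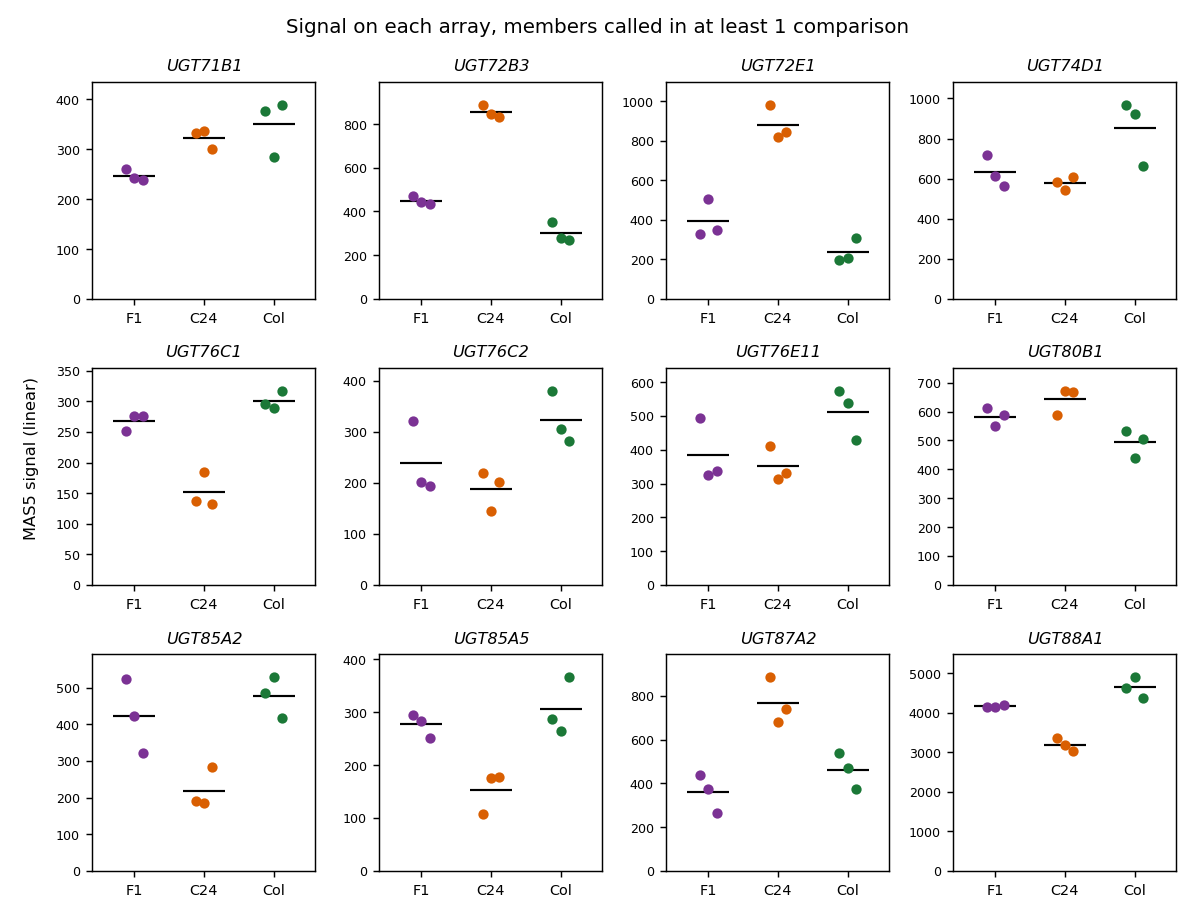
MAS5 signal (y axes, linear, from 0) on each F1, C24 and Col array (x axes) for the 12 members called in at least 1 comparison, with points for arrays and a line at the mean of 3. UGT72B3 and UGT72E1 are highest in C24, UGT76C1, UGT85A2, UGT85A5 and UGT88A1 lowest in C24, and UGT87A2 has its lowest mean in F1.

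The comparisons with the hybrid asked where the level of each member fell between those of its parents. Of the 11 members called between the parents the F1 mean lay between the parental means in 10, all but UGT87A2. Over all 4220 probe sets called between the parents the share was 85.4%. In 6 of the 10 it lay nearer to Col (UGT72B3, UGT72E1, UGT76C1, UGT85A2, UGT85A5 and UGT88A1), and in 4 nearer to C24 (UGT74D1, UGT76C2, UGT76E11 and UGT80B1). Over all 4220 probe sets called, those with F1 outside the parents included, F1 lay between the parents and nearer to Col in 47.6%. The member count on that footing is 6 of 11.

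For the 5 of 20 members called between the parents with at least a 2-fold difference (25%, background 7.88%), a position was computed on linear signals, with 0 at the Col mean, 1 at the C24 mean and 0.5 for an additive hybrid. UGT72B3 stood at 0.310, 0.259 and 0.239 on the F1 arrays (0.269 ± 0.037), UGT72E1 at 0.143, 0.413 and 0.169 (0.242 ± 0.149) and UGT76C1 at 0.329, 0.167 and 0.167 (0.221 ± 0.094). UGT85A2 spread widely, with -0.179, 0.210 and 0.608 (0.213 ± 0.393), so that 1 array lay beyond Col and 1 on the C24 side of 0.5. UGT85A5 stood at 0.074, 0.145 and 0.358 (0.192 ± 0.148). All 5 means, 0.192 to 0.269, lay on the Col side, as did 61.9% of the 1076 probe sets with such a parental difference, whose first quartile was 0.266 and median 0.422. Leaving out 1 array moved 3 of these positions by over 1.5 times. That of UGT72E1 was 0.156 without F1 replicate 2. That of UGT85A2 was 0.409 without F1 replicate 1, 0.0154 without F1 replicate 3 and 0.126 without Col replicate 2. That of UGT85A5 was -0.00585 without Col replicate 3, 0.289 without Col replicate 2 and 0.109 without F1 replicate 3. The 2 members higher in C24 stood at 0.242 and 0.269 and the 3 higher in Col at 0.192 to 0.221. The distance from 0.5 was not tested.

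**Figure D3:**
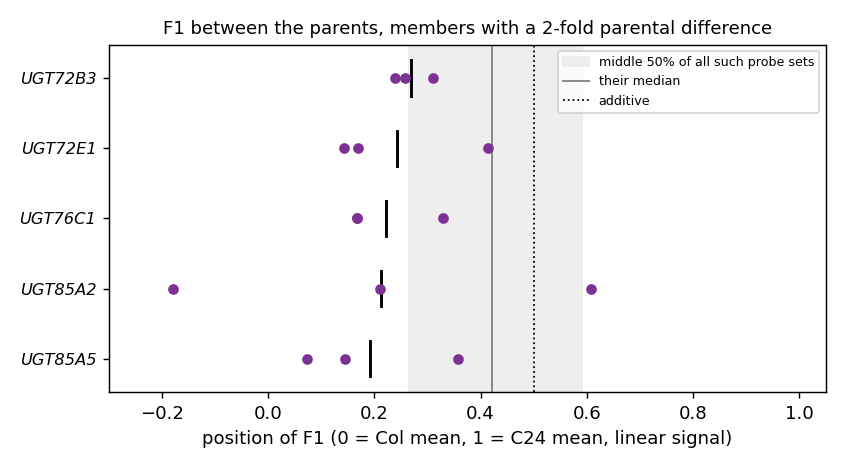
Position of F1 between the parents (x axis, linear signal, 0 for the Col mean and 1 for the C24 mean) for the 5 members with a parental difference of at least 2-fold (y axis), with points for the 3 F1 arrays and a bar at their mean. The means lie between 0.192 and 0.269, left of the additive 0.5 and of the median of 0.422 over all such probe sets, with UGT85A2 the most spread.

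Against the mid-parent 12 of 20 differences of the members were negative, with a median of -0.13 against -0.03 over all probe sets tested, and 4 had an unadjusted p under 0.05. The shares of all probe sets that were negative or had such a p were not computed, so both counts have no background. Neither gene higher in C24 among the 5 was called. UGT72B3 differed from the mid-parent by -0.36 (95% interval -0.60 to -0.12, adjusted p = 0.107) and UGT72E1 by -0.53 (95% interval -0.89 to -0.16, adjusted p = 0.123), the second passing without F1 replicate 2 (-0.72, adjusted p = 0.0379). No member was called above or below both parents in limma (0 of 20, background 0.755%), and UGT71B1 was the 1 member below both at an unadjusted p under 0.05 in each comparison. That unadjusted count has no background either.

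Neighbouring genes were compared as pairs. In the RefSeq gene order 24 of the 45 members fell into 10 runs of neighbours with at most 1 other gene between them, and in 4 runs at least 2 members were tested. In 2 of the 4 runs both tested members fell in C24: UGT76C1 and UGT76C2 had log2 differences of -1.0 and -0.78 in C24 minus Col, and UGT85A2 and UGT85A5 had -1.15 and -1.02. The second of these runs also holds UGT85A7 and UGT85A3, both under the filter. UGT85A7 (AT1G22340) went the other way, with 196, 12.1 and 131 in F1, 157, 114 and 174 in C24 and 97.5, 13.8 and 73.5 in Col, so that its C24 arrays lay above all Col arrays. In the run of UGT71C4 and UGT71C5 and that of UGT84A3 and UGT84A4 neither member was called and the 2 signs differed. How often neighbouring genes outside the family were called in the same direction was not computed, so these counts have no background. Each neighbour has a probe set of its own, and 0 of the 45 carry the suffix that marks probe sets shared by related genes. Whether related transcripts bind to them was not tested.

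The 25 members under the filter had signals of 1.46 to 196, and in 22 of them every array was below 89.9. Their replicates varied more, with a median SD of log2 signals within a group of 0.76, against 0.19 for the 20 tested. C24 and Col arrays did not overlap in 9 of the 25, a share of 36% where it was 16.8% among all probe sets under the filter. C24 was the higher in 7 and the lower in 2 (UGT84A1 and UGT84B1). The share by direction among all probe sets under the filter was not computed, so this split has no background beside it.

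With no filter, 4 of the 25 were called in C24 against Col, where 4.8% of all probe sets under the filter were. All 4 were higher in C24, again with no background by direction. Their Col signals, 2.79 to 26.5, lay far under the filter and are not known to stand above background, so the log2 differences below give a direction and a call but not a measured size. These 4 calls, and the 1 in F1 against Col given below, were not tried under the other alternatives, such as an added offset or leaving out an array. UGT73B5 (AT2G15480), which has been linked to the hypersensitive response to bacteria, had 55.0, 23.9 and 32.4 in F1, 29.1, 86.4 and 45.5 in C24 and 2.79, 7.88 and 5.35 in Col. Neither F1 nor C24 overlapped Col. The log2 difference was 3.31 (adjusted p = 0.00484) for C24 minus Col and 2.83 (adjusted p = 0.0341) for F1 minus Col, the 1 call among the 25 in that comparison (background 1.19%).

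UGT73C1 (AT2G36750), known from cytokinins and from the conjugation of explosive residues, had 70.0, 64.6 and 4.99 in F1, 70.6, 93.0 and 68.4 in C24 and 4.71, 5.0 and 26.5 in Col. C24 lay above Col, at a log2 difference of 3.16 (adjusted p = 0.0367), and F1 held both high and low arrays. UGT73D1 (AT3G53150) had 25.7, 5.58 and 22.0 in F1, 20.7, 70.6 and 94.7 in C24 and 7.41, 7.20 and 8.01 in Col, with C24 minus Col at 2.78 (adjusted p = 0.0298). UGT71B8 (AT3G21800), of abscisic acid conjugation, had 43.8, 5.96 and 29.2 in F1, 38.9, 64.4 and 41.2 in C24 and 9.66, 6.41 and 9.14 in Col, with C24 minus Col at 2.50 (adjusted p = 0.0416). Its F1 arrays ranged from the level of Col to that of C24.

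In the other direction UGT84B1 (AT2G23260), the indole acetic acid glucosyltransferase, had 24, 13.8 and 8.46 in F1, 7.77, 5.74 and 6.69 in C24 and 40.8, 19.4 and 30.3 in Col. C24 lay below every other array, and C24 minus Col was -2.11 (adjusted p = 0.0674). In F1 against C24 0 of the 25 were called in limma (background 1.46%), with 3 at an unadjusted p under 0.05, for which no background was computed. The salicylic acid enzyme UGT74F1 and UGT76B1 were among the dim members with overlapping parents. UGT76B1 (AT3G11340) had 5.95, 3.95 and 21.0 in F1, 28.3, 7.01 and 47.8 in C24 and 8.40, 15.1 and 20.3 in Col.

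**Figure D4:**
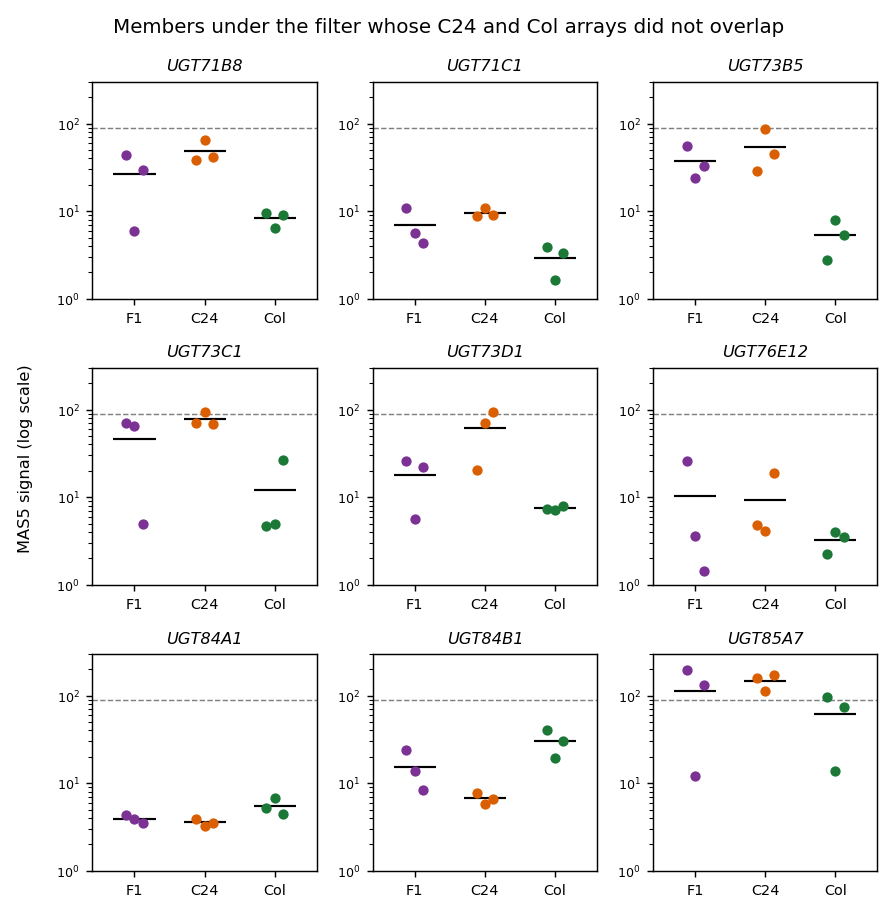
MAS5 signal (y axes, log scale) on each F1, C24 and Col array (x axes) for the 9 members under the filter whose C24 and Col arrays did not overlap, with points for arrays, a solid line at the linear mean of 3 and a dashed line at the filter signal of 89.9. C24 is the higher parent in 7 panels and the lower in those of UGT84A1 and UGT84B1.

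Genes of the pathways that UGTs serve were few in the annotation. Of glutathione S-transferases of the tau class (GSTU), which conjugate foreign compounds alongside UGTs, 6 of 11 named were tested, and 2 rose in C24 and 0 fell, where the background was 15.7% higher and 15.2% lower. GSTU26 stood at 686 ± 47.2 in F1, 888 ± 31.2 in C24 and 207 ± 42.9 in Col, with C24 minus Col at 2.12 (SE 0.14, adjusted p = 2.57e-08). GSTU27 stood at 1817 ± 159 in F1, 2633 ± 187 in C24 and 993 ± 67.8 in Col, with C24 minus Col at 1.41 (SE 0.10, adjusted p = 4.93e-08). Both were also higher in F1 than in Col, by 1.74 (adjusted p = 8.44e-07) and 0.87 (adjusted p = 3.84e-05). The list's median for C24 minus Col was 0.07, against 0.03 over all probe sets tested. The 1 phi-class gene tested, GSTF4, was not called, at -0.78 (adjusted p = 0.0676).

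Beta-glucosidases (BGLU), some of which release the sugar that UGTs attach, held calls in both directions. Of 20 named by that symbol 9 were tested, and 3 rose and 4 fell in C24 (background 15.7% and 15.2%), with a median of -0.14. BGLU43 rose most, at 129 ± 36.7 in F1, 221 ± 52.3 in C24 and 49.7 ± 15.7 in Col (adjusted p = 6.87e-05 for C24 minus Col). Its Col level lay under the filter signal, so that no size is given, and it passed the filter through its C24 and F1 arrays. Among the genes with a BGLU symbol, BGLU47 and BGLU42 fell most, with log2 differences of -1.10 (adjusted p = 0.0154) and -0.87 (adjusted p = 0.000474). The C24 mean of BGLU47, 89.6, lay just under the filter signal. PYK10, the beta-glucosidase gene given with the root markers, carries another symbol and is not in these counts. It was called lower in C24 as well (adjusted p = 2.96e-10). Among serine carboxypeptidase-like genes, a family with acyltransferases that use glucose esters, 14 of 29 named were tested, and 3 rose and 4 fell in C24 (background 15.7% and 15.2%), with a median of 0.25. Among those that fell, scpl42 stood at 492 ± 24.6 in F1, 49.9 ± 40.1 in C24 and 805 ± 39.1 in Col (adjusted p = 0.000135 for C24 minus Col). The C24 level of scpl42 lay under the filter signal, so that no size is given, and it passed the filter through its Col and F1 arrays. The difference was -0.83 (adjusted p = 0.000182) for scpl48, which fell, and 0.76 (adjusted p = 0.00108) for scpl46, which rose.

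HCT, an enzyme gene early in monolignol synthesis and the 1 gene tested of 21 listed for phenylpropanoids, fell in C24 while UGT72E1 and UGT72B3 rose. HCT stood at 2779 ± 199 in F1, 2556 ± 230.3 in C24 and 3875 ± 185 in Col, with C24 minus Col at -0.60 (SE 0.09, adjusted p = 0.00014) and F1 minus Col at -0.48 (adjusted p = 0.00304). For auxin, abscisic acid and brassinosteroid turnover 3 of 26 listed genes were tested, and the acyl acid amido synthetase gene GH3.9 rose, with C24 minus Col at 0.84 (adjusted p = 0.00314) and F1 minus Col at 0.83 (adjusted p = 0.00894). USP, the 1 gene tested of 25 listed for UDP-sugar supply, was not called, with C24 minus Col at 0.17 (adjusted p = 0.277). Of 17 salicylic acid genes listed the annotation named 3, of which 2 were tested (SAG101 and GRX480). Of 17 glucosinolate genes listed it named 1, which was tested (BCAT4, for the chain elongation of methionine). All of those tested rose in C24 (background 15.7%), too few genes to speak for either pathway. The log2 difference from Col was 0.68 (adjusted p = 0.00024) for BCAT4. For SAG101 (adjusted p = 0.000541) and GRX480 (adjusted p = 0.000589) the Col means, 85.6 and 59.0, lay under the filter signal, so that no size is given. Both passed the filter through their C24 and F1 arrays, so their direction is not independent of the filter. Of 32 cytokinin genes listed, the annotation named ARR15, which lay under the filter, and no ABCC pump was named under that symbol.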

How the data were processed

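The authors deposited intensity values, linear signals. Per the submitters' processing notes they come from MAS5, with no version or settings stated in the sources used here. The mean of each array after trimming 2% at either end was 500.05, so the arrays had been scaled before deposit. Arrays give no read depth, and their number limits the precision. Of 22810 probe sets 64 controls were set aside. Signals were log2-transformed, probe sets under the 40th percentile of the mean log2 signal were left out, and limma 3.58.1 (R 4.3.3) fitted group means over the 9 arrays, using lmFit, eBayes with an intensity trend and Benjamini-Hochberg adjustment over 13648 probe sets. The standard error against the mid-parent came from the delta method. The fit was also run on simulated signals with independent noise and known changes planted in brighter probe sets only. That run held no changed dim probe sets and no link between replicate numbers, so it cannot speak for either. Symbols came from the platform annotation and loci from RefSeq (TAIR10.1, 45 of 45 matched), which was used only for names and gene order. Probe, promoter and protein sequences were not used here. The rule for members uses no measured value, but the family and the lists were chosen with earlier results of these data known. Values on every array were given for each member called in any comparison, and other genes were limited to 3 per list. No scan or extraction batch was stated for any array. Alternatives were no filter, a 60th-percentile filter, quantile normalization, median centring, log2(signal + 50), no intensity trend, the replicate block, a fit of only the groups compared, a mid-parent of logs, leaving out shared-gene probe sets and leaving out each array.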

Additional observations from a re-analysis of the deposited data

How the results depend on the processing

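Of the 22 single calls of members over the filter, 15 were kept under every alternative that tested the gene (UGT76C1, UGT76C2 and UGT85A5 drop out at the 60th-percentile filter). None of the 391 values computed changed direction, but many could not. The filters, the trend, the replicate block, a fit of only the groups compared and leaving out arrays of the third group can change a p-value but not a difference between 2 groups. Leaving out shared-gene probe sets changed nothing, as 0 of the 45 members carry that suffix. With each array left out in turn the count of members called ran from 8 to 12 in C24 against Col, from 1 to 3 in F1 against Col, from 7 to 8 in F1 against C24, from 0 to 3 against the mid-parent and was 0 throughout beyond both parents. In F1 against Col the count was 1 without Col replicate 1 or F1 replicate 2, and against the mid-parent it was 3 without Col replicate 2 (UGT71B1 and UGT72E2 being added), 2 without F1 replicate 2 and 0 without F1 replicate 3. Without an intensity trend it was 1 in F1 against Col and 0 against the mid-parent, and with the replicate block it was 5 in F1 against Col, UGT74B1 (adjusted p = 0.0358) and UGT74D1 (adjusted p = 0.0474) being added, and 13 in C24 against Col, UGT74B1 (adjusted p = 0.0276) and UGT85A4 (adjusted p = 0.0435) being added. The replicate numbers were not taken as pairs. In their deviations from the group means, same-numbered arrays of different groups correlated at -0.00147 to 0.117 and other arrays at -0.109 to 0.0178. Not every array correlated best with its own number, but replicates 1 and 3 correlated with their own at 0.0906 to 0.117. With the replicate block, calls over all probe sets rose from 4220 to 4471 in C24 against Col and from 1563 to 1844 in F1 against Col. They rose from 1951 to 2255 in F1 against C24 and from 450 to 595 against the mid-parent. The cause of these changes was not tested. With no filter 15 of 45 members were called in C24 against Col, and 4091 of all 22746 probe sets. Of all probe sets called in C24 against Col 2139 were higher and 2081 lower, against 1614 and 2605 with median centring and 1845 and 2158 with quantile normalization. In F1 against C24 1030 were higher and 921 lower, against 1243 and 722 with median centring. In F1 against Col 869 were higher and 694 lower, against 738 and 813 with median centring. With median centring the members called were 3 higher and 8 lower in C24 against Col, and 4 higher and 3 lower in F1 against C24. Sequence differences of C24 under the probes were not examined.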
